A study of Mus musculus with 4 samples.

Results

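The neurotrophin and GDNF genes described here are 9 ligands and receptors, taken by gene symbol from the 25239 gene IDs of the deposited tables. The Trk and p75 arm comprised the receptors Ntrk2, Ntrk3 and Ngfr and the ligand Bdnf. The Ret and Gfra arm comprised Ret, its co-receptors Gfra1, Gfra2 and Gfra3, and the ligand Gdnf. All 9 were found, each on 1 row per library. Their RNA was measured in dissected mouse retina at E13.5 (E, embryonic day), in 2 libraries from control retina and 2 libraries from retina labelled Isl1cKO. Isl1cKO stands for a conditional knockout of Isl1, the gene of a LIM-homeodomain transcription factor that retinal ganglion cells need to differentiate. The allele, the Cre driver, the strain, the number of pooled embryos and the genotype of the controls are not given in the sources used here. Nothing states that the replicates came from separate litters, so p-values measure only the spread between these samples, which may be technical.

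Neurotrophins are secreted survival and growth factors of neurons. They act through the Trk receptor tyrosine kinases, and all of them also bind the p75 receptor that Ngfr encodes. BDNF signals through TrkB, the product of Ntrk2, while TrkC, the product of Ntrk3, is the receptor of neurotrophin-3. GDNF-family ligands first bind a GFRα co-receptor anchored in the membrane, and the pair then engages the tyrosine kinase RET. In the retina, BDNF and TrkB are best known for the survival of ganglion cells, whose axons form the optic nerve.

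Levels are given in TPM, a measure of transcript abundance, which are scaled to transcript length and sum to 1000000 in each library. The number of reads is unknown, and the ratio of coverage to FPKM corresponds to 12.6 to 14.3 gigabases of aligned sequence per library. Isl1 itself read 242 and 201 TPM in the controls against 321 and 223 TPM under the Isl1cKO label (log2 fold change 0.28, SE 0.21, adjusted p = 0.683 in limma). The targeted gene was thus not lower under the knockout label, the tables give no value per exon, and every direction below rests on the labels. Library Isl1cKO replicate 2 stood apart in Xist, at 0.501 TPM against 209 to 287 TPM in the other 3 libraries. Of 15 tested ganglion cell markers, 13 were lower in both libraries labelled Isl1cKO than in both controls, as were 30.0% of all tested genes. None of these markers had an adjusted p under 0.05 in limma (lowest 0.0829). The summed level over all 16 markers was 4879 and 4644 TPM in control and 3021 and 2806 TPM in Isl1cKO. That sum includes Atoh7, which was not lower, at 1025 and 1352 TPM in control and 1058 and 1458 TPM in Isl1cKO. Other retinal cell types also had lower markers: 4 of 6 tested amacrine and 4 of 7 tested photoreceptor precursor markers were lower without overlap, and 0 higher. Among horizontal cell markers 1 of 4 was lower and 1 higher, and among progenitor markers 3 of 13 were lower and 6 higher. Over all tested genes 30.0% were lower without overlap and 14.9% higher. In whole retina, fewer cells of a type and less RNA per cell cannot be told apart. Lens markers summed to 159 and 192 TPM in control and to 11.9 and 7.98 TPM in Isl1cKO, and red blood cell markers to 2894 and 4147 TPM against 1411 and 202 TPM. The part of either tissue in the results below was not tested.

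Sequence just upstream of the start site is shown for 3 members: Ngfr and Gdnf, which were lower in Isl1cKO, and Ntrk2, which was not. All 3 are promoter sequences of RefSeq (GRCm38.p6, the assembly of mm10), and 5 of the 9 members had an entry. Each is read 5′ to 3′ on the gene's strand. The windows are chr11:95587736-95587948 (minus strand, 213 bases) for Ngfr, chr15:7809798-7810047 (plus strand) for Gdnf and chr13:58806319-58806568 (plus strand) for Ntrk2. The last 37 of 250 bases were left off for Ngfr because GENCODE M21 counts them as transcribed. Capitals mark every match, on either strand, to 3 short motifs: CTAATG, a homeodomain-type sequence with a TAAT core, GGGCGG, the GC box, and TATAAA, the TATA box.
Ngfr: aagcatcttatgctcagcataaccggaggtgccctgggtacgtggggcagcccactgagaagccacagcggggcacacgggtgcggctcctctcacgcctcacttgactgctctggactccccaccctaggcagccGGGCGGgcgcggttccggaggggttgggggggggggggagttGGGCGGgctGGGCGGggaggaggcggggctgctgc
Gdnf: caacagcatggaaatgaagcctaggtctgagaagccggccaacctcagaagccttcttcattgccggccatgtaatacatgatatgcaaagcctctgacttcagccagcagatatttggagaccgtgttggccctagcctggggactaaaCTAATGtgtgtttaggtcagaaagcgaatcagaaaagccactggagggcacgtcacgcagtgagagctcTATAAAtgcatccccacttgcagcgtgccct
Ntrk2: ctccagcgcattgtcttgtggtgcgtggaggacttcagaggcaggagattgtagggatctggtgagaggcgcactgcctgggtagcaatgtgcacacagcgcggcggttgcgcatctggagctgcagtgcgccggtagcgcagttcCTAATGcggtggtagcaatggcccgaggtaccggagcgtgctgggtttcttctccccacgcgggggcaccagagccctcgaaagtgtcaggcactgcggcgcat
The printed Ngfr sequence holds 3 GC boxes and neither of the other motifs. The Gdnf sequence holds CTAATG 1 time, with its first base 100 bases before the start site, and TATAAA 1 time. The Ntrk2 sequence holds CTAATG 1 time, 104 bases before the start site. Among 32851 RefSeq windows of 250 bases, 6.36% hold CTAATG, 32.7% hold GGGCGG and 12.4% hold TATAAA on either strand. The 5 members with an entry had 12 windows in all, and CTAATG was in the Gdnf and Ntrk2 windows shown, not in the other 10, which include another window of Gdnf, that of Gfra1 and all 7 of Bdnf. A match in a window is a description of letters, not of a bound site.

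Of the 9 genes, 4 fell in the libraries labelled Isl1cKO: Ret, Ngfr, Gfra3 and Gdnf (adjusted p under 0.05 in limma, Benjamini-Hochberg over 13984 genes). None rose (0.0286% of all tested genes did), and at an unadjusted p under 0.05 there were 5 lower members and 0 higher (8.92% and 3.20% of all tested genes). Over all tested genes, 0.465% were called lower. The calls fell in both arms, with 1 of 4 genes in the Trk and p75 arm and 3 of 5 in the Ret and Gfra arm. Both control values lay above both Isl1cKO values in 6 of the 9 genes, as they did in 30.0% of all tested genes. Among the 6, Gfra1 had a narrow gap, with 15.3 TPM in control replicate 2 against 15.0 TPM in Isl1cKO replicate 1. The members' median log2 fold change on the log2(TPM + 1) scale was -0.91, the value of Gfra2, against -0.05 over all genes. Gfra3 and Gdnf entered the test only through their control values, since neither reached the filter of 1 TPM in a library labelled Isl1cKO, so these counts and this median are a description. Leaving out each library in turn, 1 of the 4 calls was kept 1 time, that of Ngfr without Isl1cKO replicate 1 (adjusted p = 0.0448 in limma). The other adjusted p-values ran from 0.0538 to 0.313, with every difference still below 0. With no filter on low values, the calls of Ret, Gfra3 and Gdnf were lost (0.0799, 0.147 and 0.0738).

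**Figure D1:**
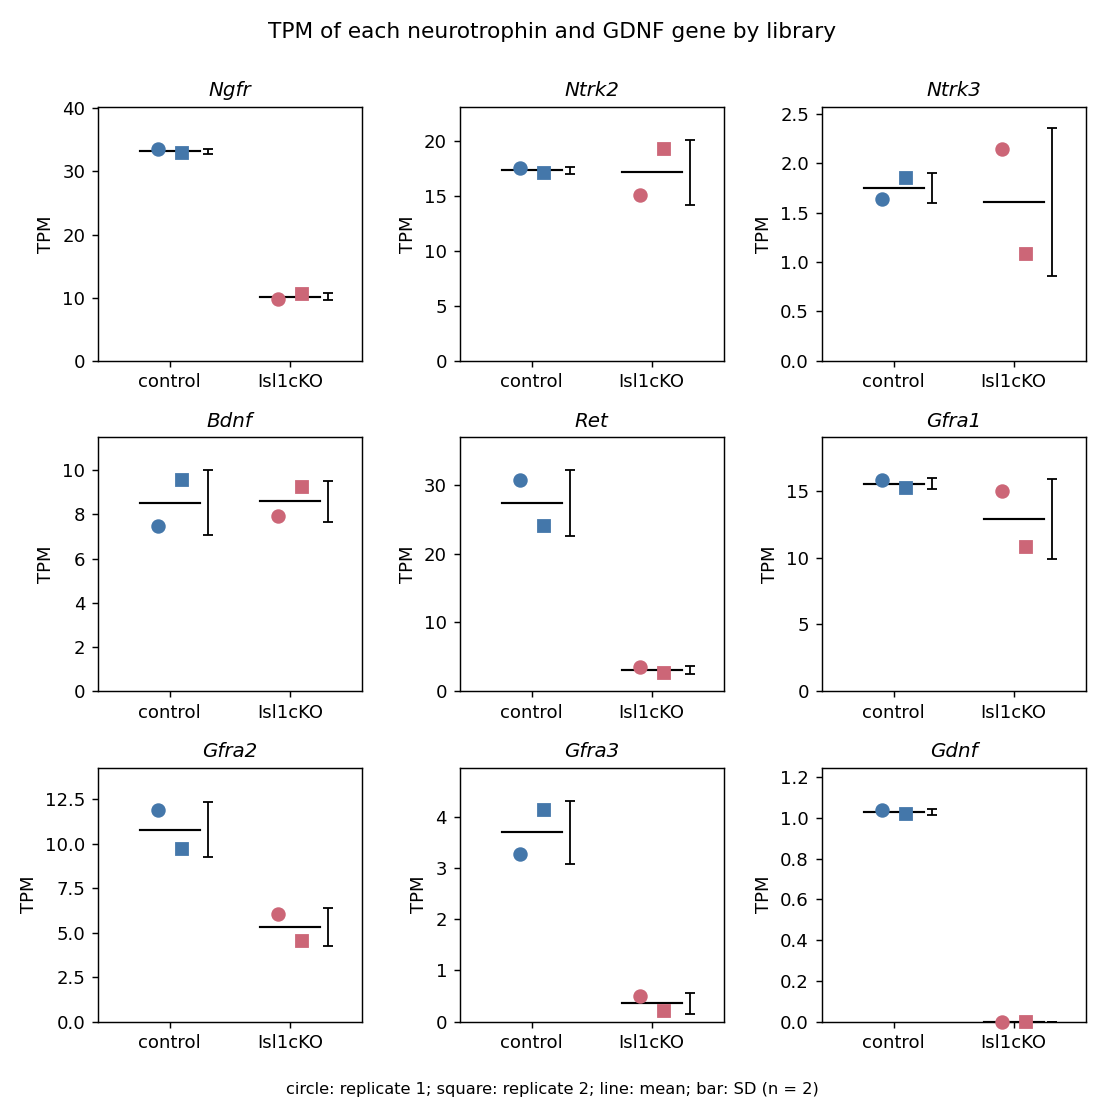
TPM (linear axes from 0) of each of the 9 genes in the 2 control and 2 Isl1cKO libraries, with circles for replicate 1, squares for replicate 2, a line for the mean and a bar for the SD (n = 2). Ret, Ngfr, Gfra3 and Gdnf are separated by wide gaps, Gfra2 by a smaller one and Gfra1 by a narrow one. The values of Ntrk2, Ntrk3 and Bdnf overlap between groups.

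Ngfr encodes p75, the receptor that all neurotrophins and their precursors bind. The gene lies on chromosome 11 (95568821 to 95587698, minus strand, mm10). Control replicates 1 and 2 had 33.5 and 32.9 TPM, and Isl1cKO replicates 1 and 2 had 9.79 and 10.5 TPM. Both libraries labelled Isl1cKO were low and close to each other, and the groups did not overlap. The mean fell from 33.2 ± 0.419 to 10.1 ± 0.510 TPM (SD, n = 2 each), to 30.6% of control. On the log2(TPM + 1) scale the fold change was -1.62 (SE 0.08), with adjusted p = 0.0126 in limma.

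Ntrk2 encodes TrkB, the signalling receptor of BDNF (chromosome 13, 58806569 to 59133970, plus strand). It stood at 17.5 and 17.1 TPM in control and at 15.0 and 19.2 TPM in Isl1cKO. The 2 libraries labelled Isl1cKO lay on either side of the controls. The log2 fold change of -0.02 (SE 0.14) had a 95% interval of -0.39 to 0.34 and adjusted p = 0.964 in limma. Its sign was positive under both other scalings, where the median of all genes moved from -0.05 to 0.01, and with FPKM.

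Ntrk3, the gene of TrkC, was low in every library (chromosome 7, 78192114 to 78577838, minus strand). Its values were 1.64 and 1.85 TPM in control, and 2.14 and 1.08 TPM in Isl1cKO. The highest and the lowest of the 4 values were thus both in Isl1cKO. Its log2 fold change of -0.10 (SE 0.22, 95% interval -0.68 to 0.47, adjusted p = 0.887 in limma) became 0.19 without Isl1cKO replicate 2.

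Bdnf, the TrkB ligand (chromosome 2, 109674700 to 109727043, plus strand), was at 7.49 and 9.57 TPM in control. It was at 7.93 and 9.26 TPM in Isl1cKO, within the control range. Between the groups, Bdnf differed by 0.02 on the log2 scale (SE 0.15, 95% interval -0.38 to 0.41, adjusted p = 0.980 in limma). Ligand and receptor of the BDNF and TrkB pair therefore both had overlapping groups, and these intervals still allow changes of about 0.4 on the log2 scale either way.

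Within the Trk and p75 arm, the make-up of the receptor pool differed between groups. Ngfr per Ntrk2, a ratio of TPM within a library that does not depend on scaling between libraries, was 1.91 and 1.93 in control and 0.651 and 0.547 in Isl1cKO. Ngfr was the larger of the pair in both controls and the smaller in both libraries labelled Isl1cKO. In coverage per base Ngfr stayed the larger in all 4 libraries: Ngfr per Ntrk2 was 3.54 and 3.63 in control and 1.29 and 1.09 in Isl1cKO, so the ratio was lower in Isl1cKO on both measures but crossed 1 only in TPM. In TPM, the share of Ngfr in the 3 receptors was 63.6% and 63.5% in control and 36.3% and 34.1% in Isl1cKO. Summed over Ntrk2, Ntrk3 and Ngfr, the control mean was 52.3 ± 0.560 TPM and the Isl1cKO mean 28.9 ± 2.73 TPM (SD, n = 2). No test was made of these sums and ratios.

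Ret encodes the receptor tyrosine kinase shared by all GDNF-family ligands, and lies on chromosome 6 (118151748 to 118197744, minus strand). It stood at 30.8 and 24.0 TPM in control and at 3.53 and 2.68 TPM in Isl1cKO. The groups were far apart, although the controls differed more from each other than the 2 libraries labelled Isl1cKO did. The mean fell from 27.4 ± 4.79 to 3.10 ± 0.599 TPM (SD, n = 2), to 11.3% of control, a log2 ratio of the means of -3.14. In limma's log2(TPM + 1), where the added 1 makes differences between low values smaller, the fold change was -2.79 (SE 0.17, adjusted p = 0.0199 in limma). Ranked on that scale from the most lower of 13984 genes, Ret was at place 21 and Ngfr at place 73. Gfra3 was at place 55, but it entered the test only through its control values. The size of its fold change depends on the pseudocount, so its place is a description.

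Gfra3 encodes the co-receptor preferred by artemin (chromosome 18, 34689898 to 34720387, minus strand). It stood at 3.27 and 4.13 TPM in control, and at 0.504 and 0.209 TPM in Isl1cKO. Both libraries labelled Isl1cKO were below the filter of 1 TPM. The mean of 3.70 ± 0.611 TPM fell to 0.356 ± 0.208 TPM (SD, n = 2), which is 9.63% of control. On the log2(TPM + 1) scale the fold change was -1.80 (SE 0.16, adjusted p = 0.0439 in limma). The size of that value is set by the pseudocount at such low levels: with 0.1 in place of 1 it was -3.13 and the call was lost (adjusted p = 0.129 in limma), and with log2(FPKM + 1) it was -1.06 (adjusted p = 0.0202).

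Gdnf, the ligand that GFRα1 prefers (chromosome 15, 7810048 to 7837580, plus strand), was the lowest member. It stood at 1.04 and 1.02 TPM in control and was listed at 0 in both libraries labelled Isl1cKO. No fold is given against a listed 0, and without read counts no limit can be set on what a 0 allows. The fitted difference depends on the pseudocount, at -1.02 with 1 and -3.50 with 0.1, and is not a fold change. Its adjusted p was 0.0274 in limma, for a gene just above the filter in control. With a mean-variance trend in place of a constant variance the adjusted p-value was 0.103.

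Gfra2 encodes the co-receptor preferred by neurturin (chromosome 14, 70890107 to 70979840, plus strand). Its values were 11.9 and 9.69 TPM in control, and 6.07 and 4.54 TPM in Isl1cKO. Every control lay above every library labelled Isl1cKO, and the Isl1cKO mean was 49.2% of control. The log2 fold change was -0.91 (SE 0.17), but the adjusted p-value of 0.171 in limma missed the threshold.

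Gfra1 encodes the GDNF co-receptor (chromosome 19, 58235581 to 58455398, minus strand). It stood at 15.8 and 15.3 TPM in control and at 15.0 and 10.8 TPM in Isl1cKO. Isl1cKO replicate 1 was just below the controls and replicate 2 was lower, so the groups did not overlap, by a narrow gap. With all libraries the log2 fold change was -0.27 (SE 0.17, 95% interval -0.72 to 0.18, adjusted p = 0.617 in limma). Leaving out Isl1cKO replicate 2 gave -0.05, and leaving out Isl1cKO replicate 1 gave -0.49.

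**Figure D2:**
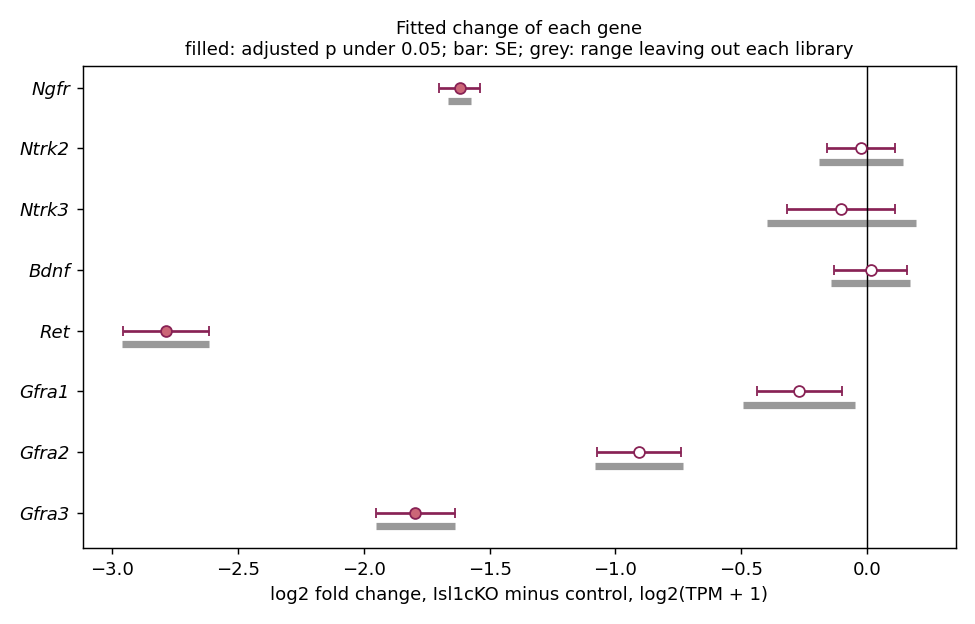
Log2 fold change (Isl1cKO minus control, log2(TPM + 1) scale) of 8 members with SE bars, filled where the adjusted p-value is under 0.05, and in grey the range when each library in turn is left out. Gdnf is not drawn because it is listed at 0 in both Isl1cKO libraries. The grey ranges of Ret, Gfra3, Ngfr, Gfra2 and Gfra1 stay below 0, and those of Ntrk2, Ntrk3 and Bdnf span it.

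In the Ret and Gfra arm, the kinase stood at 11.3% of its control level and the summed co-receptors at 61.8%. Gfra1, Gfra2 and Gfra3 together had a mean of 30.0 ± 1.35 TPM in control, and of 18.6 ± 4.29 TPM in Isl1cKO (SD, n = 2). Ret per summed Gfra was 0.993 and 0.826 in control, near 1 kinase transcript to 1 co-receptor transcript, and 0.163 and 0.173 in Isl1cKO. Ret per Gfra1 was 1.94 and 1.57 in control and 0.235 and 0.249 in Isl1cKO. Gfra1 made up 51.1% and 52.5% of the co-receptor sum in control and 69.6% and 69.4% in Isl1cKO, while Gfra3 went from 10.5% and 14.2% to 2.33% and 1.35%. These within-library ratios differed between the groups by more than between replicates, and they were not tested.

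**Figure D3:**
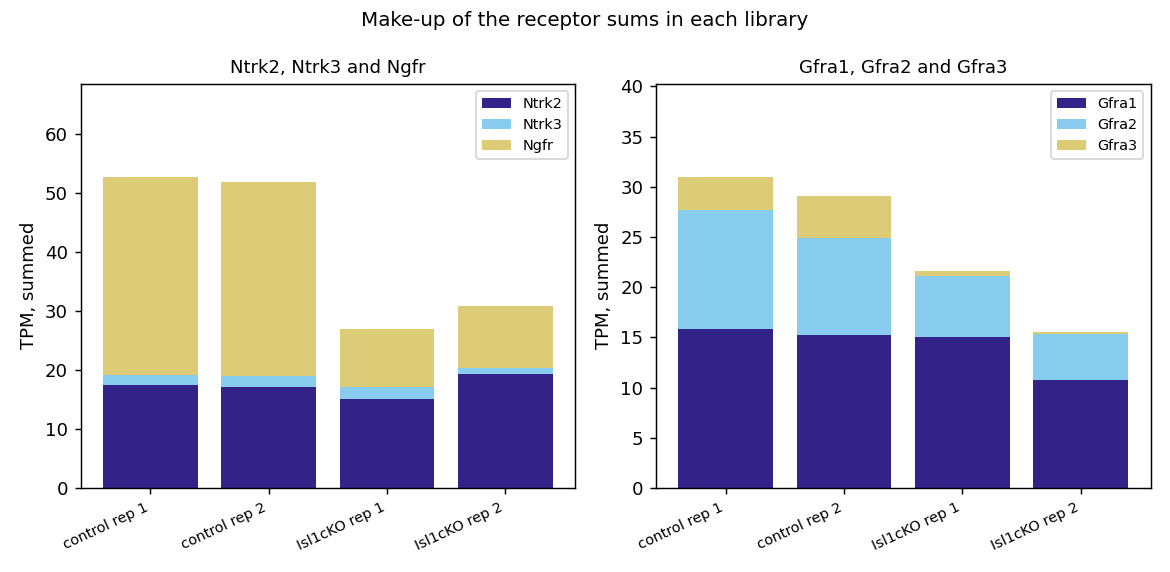
Stacked TPM (axis from 0) of Ntrk2, Ntrk3 and Ngfr, left, and of Gfra1, Gfra2 and Gfra3, right, in each of the 4 libraries. The loss of height from control to Isl1cKO lies mostly in the Ngfr segment on the left, and on the right in Gfra2 and Gfra3, with Gfra1 also lower in Isl1cKO replicate 2.

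In TPM, the order of the levels in control was Ngfr, Ret, Ntrk2, Gfra1, Gfra2, Bdnf, Gfra3, Ntrk3 and Gdnf. Gfra2 and Bdnf were the only neighbours whose means differed by less than the sum of their SDs (2.25 against 3.02 TPM). In Isl1cKO the order was Ntrk2, Gfra1, Ngfr, Bdnf, Gfra2, Ret, Ntrk3, Gfra3 and Gdnf. There, Ntrk2 and Gfra1, and Gfra1 and Ngfr, did not differ beyond their spread. On coverage put on the TPM scale, the Isl1cKO means were 12.6 for Gfra1, 10.1 for Ngfr and 8.58 for Ntrk2, so the place of Ntrk2 there depends on the column.

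The order depends on the deposited column for some genes. For Ngfr and Gfra3, with 1 transcript each in GENCODE M21, coverage per base stood at the library's usual ratio to FPKM. For Ret, Gfra1 and Gfra2, with 2, 9 and 3 transcripts, it lay between 0.954 and 0.981 of that ratio. For Ntrk2, with 10 transcripts, it was 0.499 to 0.540 of the usual ratio, for Bdnf, with 11, 0.0777 to 0.0778, and for Ntrk3, with 20, 0.0612 to 0.0628. Put on the TPM scale, coverage gave control means of 9.27 for Ntrk2, 0.663 for Bdnf and 0.108 for Ntrk3, against 17.3, 8.53 and 1.75 TPM. For Gdnf, with 1 transcript, the ratio was 0.684 and 0.561 of the usual one in the controls. The ratio thus did not follow the number of transcripts alone. The levels of Ntrk2, Bdnf, Ntrk3 and Gdnf relative to the other members are therefore uncertain. The comparison of Bdnf, Ntrk3 and Ntrk2 between groups did not turn on this, since the ratio was nearly the same in all libraries for Bdnf and Ntrk3, and for Ntrk2 the log2 fold change from coverage was -0.11 (adjusted p = 0.791 in limma). Antisense transcripts overlap Ntrk2, Ntrk3, Bdnf and Gfra1 in GENCODE M21, and whether reads were counted by strand is not stated.

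The members were set beside the 15 tested ganglion cell markers, whose log2 fold changes on the log2(TPM + 1) scale ran from -1.66 for Pou4f3 to 0.08 for Atoh7, with a median of -1.10. On that scale Ret and Gfra3 were lower than all 15 and Ngfr than 13 of them. As a percentage of the control mean, Pou4f3 at 11.1% lay just below Ret at 11.3%, and Ngfr at 30.6% lay above Pou4f3 alone. On the log2(TPM + 1) scale Gfra2 lay above 11 of the markers, and Ntrk2, Ntrk3, Bdnf and Gfra1 above 13. The 2 markers above these 4 members were Pou4f2, at 126 and 124 TPM in control and 135 and 120 TPM in Isl1cKO, and Atoh7, which were both near their control level. The members thus did not lie together. Ret and Gfra3 lay below the range of the markers on the log2(TPM + 1) scale. As a percentage of the control mean, Gfra3 at 9.63% also lay below all of them, and Ret did not. Gfra3 and Pou4f3, the marker at the low end, passed the filter only through their control values, so these placings are a description. Pou4f3 was at 4.86 and 2.02 TPM in control and at 0.761 and 0 TPM in Isl1cKO. Ngfr, Gfra2, Ntrk2, Ntrk3, Bdnf and Gfra1 lay within the range. Gdnf, listed at 0 in both libraries labelled Isl1cKO, was not placed.

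Ngfr, Ret and Gfra3 are also known from peripheral neurons and neural crest derivatives, so markers of those cells are given. Of 5 peripheral sensory and autonomic neuron markers, Prph and Th passed the filter. Both were lower in Isl1cKO without overlap, as were 30.0% of all tested genes. Runx1 and Runx3 stayed below the filter. Runx1 overlapped between groups, and Runx3 was higher in Isl1cKO, at 0.0475 and 0.0310 TPM in control and 0.125 and 0.114 TPM in Isl1cKO. The 5 markers summed to 10.2 and 13.1 TPM in control and to 1.61 and 2.19 TPM in Isl1cKO. Th made up most of that sum in every library. Th fell from 8.43 and 10.7 TPM to 0.987 and 1.25 TPM (adjusted p = 0.0199 in limma). The autonomic marker Dbh was at or near 0, with at most 0.0256 TPM in any library. The 5 neural crest glia and Schwann precursor markers summed to 0.503 and 1.04 TPM in control and to 0.432 and 0.615 TPM in Isl1cKO, and Sox10 among them did not exceed 0.358 TPM. Periocular mesenchyme markers summed to 38.5 and 28.4 TPM against 26.9 and 19.7 TPM. Among them, 2 of 6 tested markers were lower without overlap, near the 30.0% of all tested genes. The part of these cells in the results was not tested.

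The other genes of both pathways were taken from 5 lists with 121 symbols, of which 100 were tested. Of these, 0 were called lower and 0 higher at an adjusted p under 0.05 in limma (0.465% and 0.0286% over all genes). At an unadjusted p under 0.05, 14 were lower and 0 higher (8.92% and 3.20% over all genes). The median log2 fold change was -0.10, against -0.05 over all genes. The groups did not overlap in 46 genes that were lower and 3 that were higher (30.0% and 14.9% over all genes).

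Among the other ligands and co-receptors, 15 of 22 symbols were tested, with a median log2 fold change of -0.04. The ligands Ntf3 (neurotrophin-3), Nrtn (neurturin) and Pspn (persephin) had overlapping groups, with adjusted p-values in limma of 0.684, 0.988 and 0.967. Ntf3 was at 2.84 and 2.57 TPM in control and at 2.79 and 3.45 TPM in Isl1cKO. Ntf5 and Artn did not exceed 0.311 TPM in any library. Islr2, also called Linx, encodes a membrane protein that binds Trk and Ret receptors. It stood at 226 and 160 TPM in control and at 70.9 and 52.7 TPM in Isl1cKO, without overlap, with adjusted p = 0.112 in limma. Sdc3, the gene of the heparan sulfate proteoglycan syndecan-3, stood at 53.3 and 39.4 TPM in control and 30.2 and 29.6 TPM in Isl1cKO (adjusted p = 0.299 in limma). Sorcs2, a receptor gene of the sortilin family, stood at 21.5 and 17.8 TPM in control and 14.2 and 13.2 TPM in Isl1cKO (adjusted p = 0.276 in limma). Sort1, the gene of sortilin, the partner of p75 in binding neurotrophin precursors, was at 78.5 and 74.5 TPM in control and 71.6 and 71.9 TPM in Isl1cKO (adjusted p = 0.724 in limma).

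Signalling genes downstream of the receptors had 0 calls in either direction in limma. Over all tested genes 0.465% were called lower and 0.0286% higher, and at these shares lists of this size would hold few or no calls. At an unadjusted p under 0.05, 6 of 37 adaptors and p75 partners were lower, and 0 of 28 genes of the Ras, MAP kinase and PI3 kinase cascades. Over all tested genes the share was 8.92%. The cascade genes had log2 fold changes from -0.45 to 0.09. In the adaptor list, the 3 largest log2 fold changes among genes without overlap were those of Gab2, Dok5 and Shc2. Gab2, a docking protein, was at 15.3 and 12.8 TPM in control and at 7.91 and 8.08 TPM in Isl1cKO (adjusted p = 0.126 in limma). Shc2, a neuronal Shc adaptor, was at 44.4 and 38.7 TPM against 27.0 and 25.5 TPM (adjusted p = 0.143 in limma). Dok5, an adaptor of Ret, was at 10.1 and 9.40 TPM against 7.43 and 4.53 TPM (adjusted p = 0.368 in limma). In the cascade list the 3 were Pik3r1, Pdpk1 and Rps6ka2, with log2 fold changes of -0.45, -0.22 and -0.20 and adjusted p-values in limma of 0.454 to 0.626.

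Of 13 tested transcriptional and feedback targets, 3 were lower and 0 higher at an unadjusted p under 0.05 (8.92% and 3.20% of all tested genes). They had 0 calls in limma (0.465% lower and 0.0286% higher over all tested genes) and a median log2 fold change of -0.23. Vgf, a gene of a secreted neuropeptide precursor, stood at 2.81 and 2.23 TPM in control and 1.02 and 0.836 TPM in Isl1cKO (adjusted p = 0.106 in limma). Spry4 and Dusp4, feedback inhibitors of the MAP kinase pathway, had log2 fold changes of -0.57 and -0.35 and adjusted p-values in limma of 0.218 and 0.524. Of 7 tested genes of proneurotrophin processing, 1 was lower and 0 higher at an unadjusted p under 0.05 (8.92% and 3.20% of all tested genes). That gene was Pcsk2, a prohormone convertase, at 7.94 and 7.53 TPM in control and 4.57 and 4.44 TPM in Isl1cKO (adjusted p = 0.0824 in limma). Pcsk7 and Furin followed, with log2 fold changes of -0.26 and -0.18 and adjusted p-values in limma of 0.433 and 0.582.

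**Figure D4:**
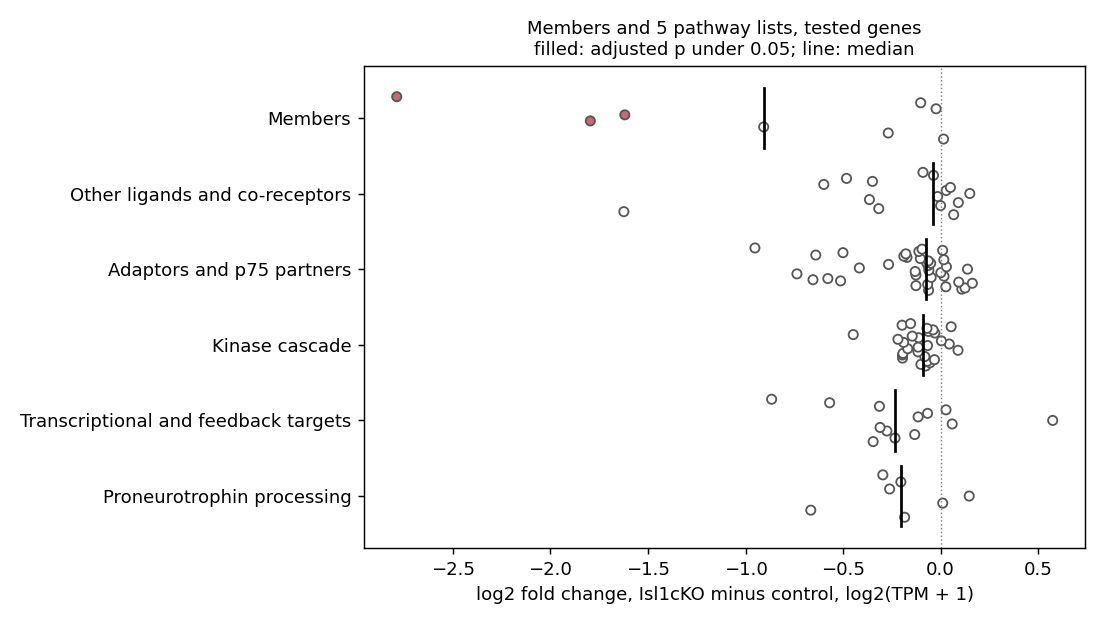
Log2 fold change (Isl1cKO minus control, log2(TPM + 1) scale) of the members and of the tested genes of 5 pathway lists, 1 point per gene, filled where the adjusted p-value is under 0.05, with a line at each median. Gdnf is counted in the members' median but not drawn. Ret, Gfra3 and Ngfr are the filled points, and most points of the cascade and adaptor lists lie near 0.

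Genes with the most similar profile were found by the Euclidean distance over the 4 libraries of log2(TPM + 1), each taken relative to the gene's control mean. Nearest to Ngfr were Itga7 (distance 0.08), Fam163a (0.13), S100a10 (0.23), Synm (0.25) and P2rx3 (0.26). Itga7, an integrin subunit, stood at 2.77 and 2.53 TPM in control and at 0.191 and 0.198 TPM in Isl1cKO. Nearest to Ret were Cxcr4 (0.20), Cryba4 (0.30), Sst (0.31), Crygd (0.36) and Irx4 (0.36). Cxcr4, a chemokine receptor gene, stood at 58.3 and 40.3 TPM in control and at 7.83 and 5.28 TPM in Isl1cKO. Nearness on this scale does not mean a like fold in TPM, since the pseudocount of 1 shortens the differences of low genes: the control mean was 13.6 times the Isl1cKO mean for Itga7 and 3.27 times for Ngfr, and 100 times for Irx4 and 8.82 times for Ret. Of the 5 genes nearest to Ret, 2 encode lens crystallins.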

How the data were processed

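RNA of dissected E13.5 mouse retina was poly(A)-selected and sequenced as strand-specific libraries, per the labels' protocols. The submitters' processing notes name Trimmomatic, FastQC, HISAT2, SAMtools, StringTie and DESeq2 and the build mm10, with no versions or settings. Each library has its own deposited table with coverage per base (a signal not scaled to depth), FPKM and TPM, per the file headers. The authors' TPM, summed over repeated rows of a gene ID, were analysed. The tables hold no read counts, so no count model was fitted.

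The 13984 genes at 1 TPM or more in at least 2 libraries were tested with limma 3.58.1 in R 4.3.3 (lmFit, eBayes, constant prior) on log2(TPM + 1) with a term for genotype. Benjamini-Hochberg adjustment ran over all tested genes, and the threshold was 0.05. An exact permutation test of 2 against 2 libraries cannot go below p = 0.333 and was not used. The model was tested on simulated data, with changes placed only in genes of a higher mean level than Gfra3 and Gdnf. That test therefore does not cover the calls of these genes.

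The members, lists and tests were chosen with earlier results of these data known. All members were named. From each pathway list, the genes past the threshold and the 3 with the largest log2 fold change among those with a group mean of at least 1 TPM and no overlap were named, with the 5 nearest profiles of Ngfr and Ret. Sort1, Ntf3, other ligands and single markers were chosen after their values were seen. The symbols Linx and Ngfrap1 are older names of list genes and were not matched. Some list genes are not reported here and are in no list count, sum, median or nearest profile, but stayed in the whole-table fit. RefSeq and GENCODE M21 tables of GRCm38 gave promoters and transcripts.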

Additional observations from a re-analysis of the deposited data

How the results depend on the processing

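The alternatives were a pseudocount of 0.1, no filter, a filter at 5 TPM, FPKM, median-ratio and upper-quartile scaling, a mean-variance trend, the replicate block, each library left out, and coverage in place of TPM, which was chosen after seeing the data. The cause was not tested in any case. Ngfr kept its call under all 9 alternatives with 4 libraries. The call of Ret was lost with no filter (-2.79, adjusted p = 0.0799 in limma), that of Gfra3 at a pseudocount of 0.1 (-3.13, 0.129) and with no filter (-1.80, 0.147), and that of Gdnf with no filter (0.0738) and with a trend (0.103), both with a fitted difference of -1.02, which the pseudocount sets against a listed 0 and which is no fold. Ntrk2 changed sign with FPKM (0.0236), median-ratio (0.0304) and upper-quartile scaling (0.0333). Gdnf and Ntrk3 could not be tested with FPKM, coverage or the 5 TPM filter, nor Gfra3 at 5 TPM, nor Bdnf with coverage.

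Leaving out a library leaves a lone one in a group, assumed to vary like the other group. Log2 fold changes then ran from -1.67 to -1.57 for Ngfr (call kept only without Isl1cKO replicate 1, adjusted p = 0.0448, against 0.0676 to 0.137), from -2.96 to -2.61 for Ret (0.0538 to 0.0979), from -1.95 to -1.64 for Gfra3 (0.0576 to 0.196) and, set by the pseudocount, the fitted difference from -1.03 to -1.01 for Gdnf (0.0576 to 0.313). They ran from -0.19 to 0.14 for Ntrk2, from -0.40 to 0.19 for Ntrk3 and from -0.14 to 0.17 for Bdnf.

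The replicate numbers are not said to mark a shared litter or day, and deviations from the group means correlated at 0.126. With the replicate block, Gfra2 passed (-0.91, adjusted p = 0.0268), as did the 4 called members. The whole-table count of 69 genes was 44 at a pseudocount of 0.1, 15 with no filter, 127 with FPKM, 110 with a trend, 265 with the replicate block, 141 at an adjusted p under 0.1 and 10 to 37 with a library left out. The pathway lists' count of 0 was 1 with FPKM, with a trend and at an adjusted p under 0.1, 2 with the replicate block and 0 to 1 with a library left out. The added gene was Islr2 with FPKM and with a trend, Pcsk2 at the looser threshold, and Islr2 and Vgf with the block, and the 1 gene called without Isl1cKO replicate 1 was Zfp369. The log2 ratio of the summed Trk and p75 receptors (-0.86) was -1.18 from coverage and -0.96 to -0.76 with a library left out, and that of the summed Gfra co-receptors (-0.69) was -0.95 to -0.48.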
